A study of Mus musculus with 5 samples.

Results

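Binding of the chromatin remodeller BRG1 was described at 10 genes that encode regulators of the actin cytoskeleton in leukocytes: Lcp1, Coro1a, Cyria, Fmnl1, Capg, Cotl1, Pfn1, Arpc1b, Hcls1 and Wipf1. They are 10 of 21887 protein-coding genes, and a peak was assigned to a gene when its summit lay in the gene body or within 20 kb of it on mm10. The members were chosen by measured values, since Lcp1, Coro1a and Cyria hold peaks that rank high in these same lists, so their counts, levels and ranks are given as a description without a test. The study used primary bone marrow-derived macrophages (BMDMs) and an antibody against BRG1, the SWI/SNF ATPase encoded by Smarca4, in chromatin immunoprecipitation with sequencing (ChIP-seq). The groups, with 1 library each, were wild-type cells (WT) and Baf60a knockout cells (KO) with no treatment named, called untreated here, wild-type cells with oxidised low-density lipoprotein (oxLDL WT) and knockout cells with oxLDL (oxLDL KO). An input library without antibody was not analysed here. BAF60a, encoded by Smarcd1, is a SWI/SNF subunit. The sources used here do not give the Cre or other means behind the knockout, the number, sex and age of the mice, or the oxLDL dose and time.

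Macrophages crawl, engulf particles and take up lipoproteins by assembling actin filaments under the membrane. Profilin feeds monomers to growing filaments, the Arp2/3 complex starts branches when WASP-family proteins switch it on, and formins extend unbranched filaments. Capping proteins stop growth, and plastins tie filaments into bundles. Several of these proteins exist in a form restricted largely to blood cells, such as L-plastin, coronin 1A and HS1, beside related forms in other tissues. SWI/SNF complexes use ATP to slide or evict nucleosomes at promoters and enhancers.

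The list of untreated WT held 237 peaks and that of untreated KO 139, while oxLDL WT had 9907 and oxLDL KO 4668. With 1 library in each group, a difference between lists cannot be set against replicate spread, and read totals are not known. The lowest local background of a list, which scales with its number of fragments and their length, was 2.70, 3.84, 3.76 and 3.42 fragments in the same order. Macrophage markers fixed as Spi1, Csf1r, Adgre1, Cd68, Mpeg1, Itgam, Lyz2, Tyrobp, Fcer1g and Cd14 had a peak under the same 20 kb rule at 1, 1, 10 and 8 of 10 genes, Fcer1g and Cd14 being without one in oxLDL KO. Markers of T or B cells had one at 2 of 8 genes in each oxLDL list, neutrophil markers at 3 of 8 (oxLDL WT) and 1 of 8 genes (oxLDL KO), and fibroblast markers at 1 and 0 of 8, with 0 in both untreated lists. Of all protein-coding genes, 33.2% had a peak under this rule in oxLDL WT and 21.1% in oxLDL KO. Smarcd1, the targeted gene, had 2 peaks within 20 kb in oxLDL WT and 0 in the other lists, which does not show whether it was deleted.

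BRG1 peaks at the actin regulator genes came nearly all from the oxLDL lists. The oxLDL WT list held 32 such peaks at 10 of 10 genes, the oxLDL KO list 16 at 7 genes, the WT list 1 at Pfn1 and the KO list 0. Under the same rule, the share of all protein-coding genes with a peak was 33.2% in oxLDL WT, 21.1% in oxLDL KO, 1.19% in WT and 0.553% in KO. Peaks in both oxLDL lists were found at 7 members (17.5% of all genes), in oxLDL WT and not oxLDL KO at 3 members, Coro1a, Cyria and Hcls1 (15.6% of all genes), and in oxLDL KO and not oxLDL WT at 0 members (3.55% of all genes). The rule used these lists, so nothing is read from the gap to the background. Longer genes have more room for peaks, and the members had a median length of 28.1 kb against 17.2 kb over all protein-coding genes. The lists also reach down to different p-values. At a −log10 p of at least 5.33, the lowest of the KO list, oxLDL WT held 7919 peaks, oxLDL KO 4001, WT 228 and KO 139. The members held 27, 15, 1 and 0 of them, at 10 genes in oxLDL WT and 7 genes in oxLDL KO.

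**Figure D1:**
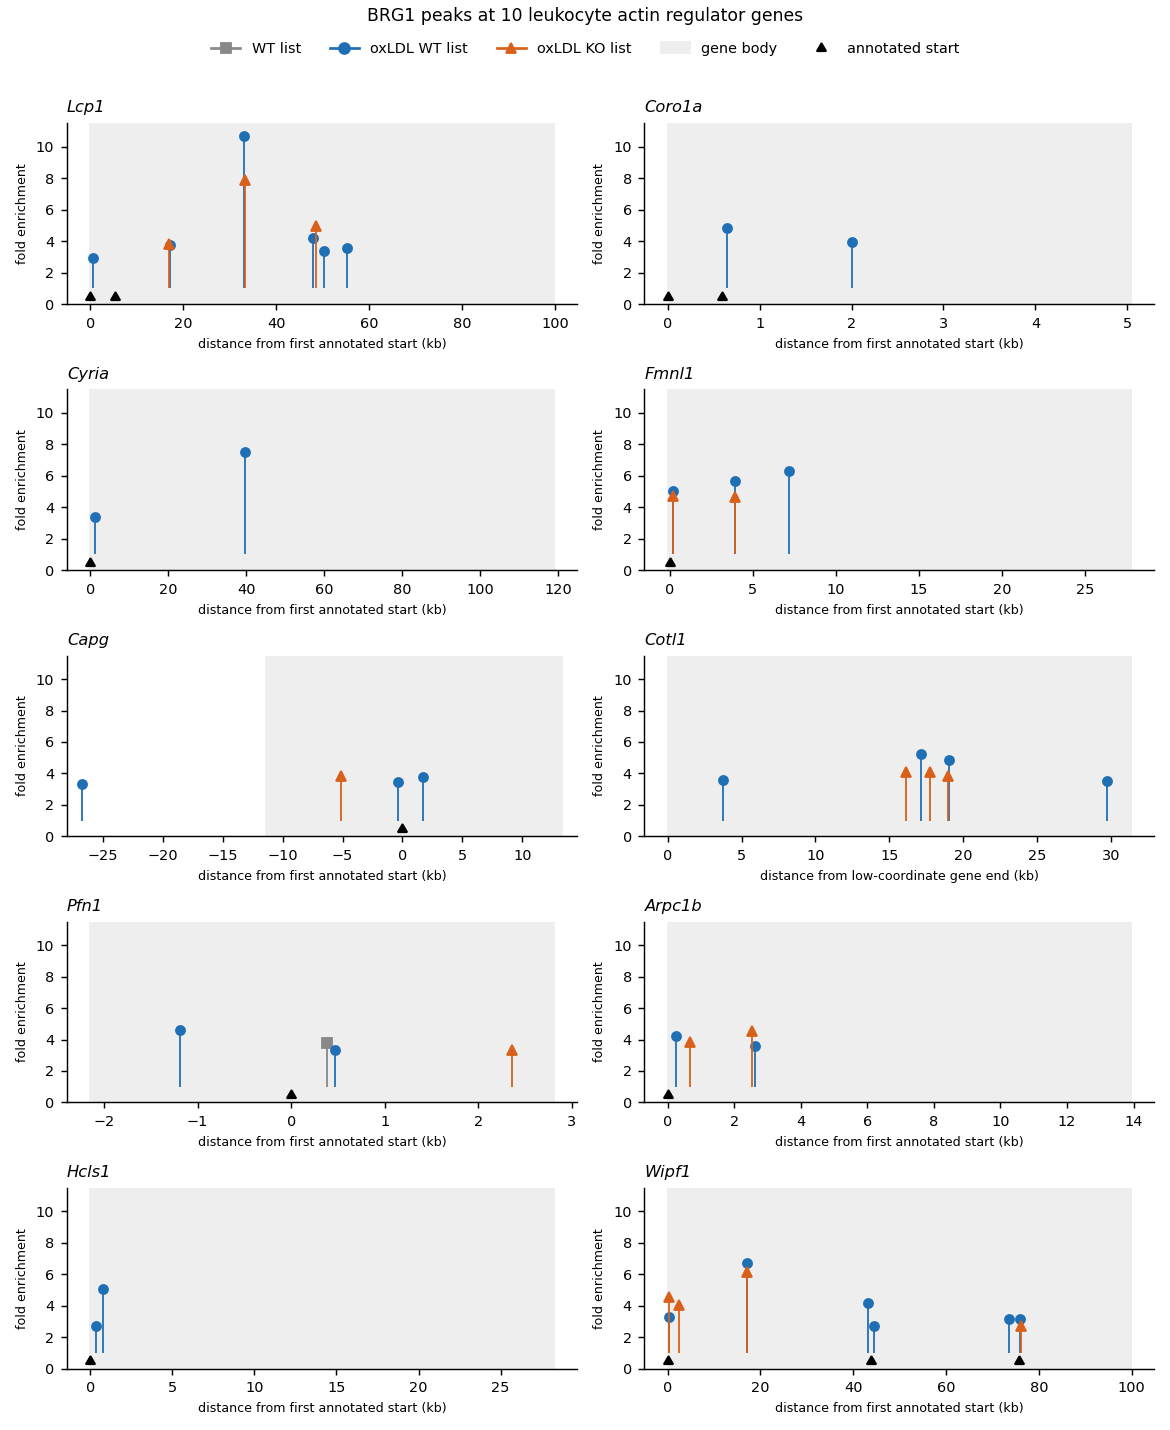
Fold enrichment (vertical axis, ratio of pileup to local background at the summit) of every peak against distance along each of the 10 genes (horizontal axis, kb in the direction of transcription from the first annotated start, and for Cotl1 from the end with the lower coordinate). Grey shading marks the gene body, black triangles annotated starts, and coloured symbols the WT, oxLDL WT and oxLDL KO lists. Coro1a, Cyria and Hcls1 show oxLDL WT peaks alone, and the Lcp1 peak near 33.2 kb is the highest of the member peaks in both oxLDL lists.

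Each peak is described by its fold enrichment, the ratio of fragments at the summit to the local background, as the authors give it. The labels do not say if that background was drawn from the input library or from the immunoprecipitated library itself. The 20 kb flanks added almost nothing, and 31 of the 32 oxLDL WT peaks and all 16 oxLDL KO peaks had their summit inside the gene body. Among all peaks that met the 20 kb rule for any protein-coding gene, the body of any such gene held 77.6% for oxLDL WT and 82.3% for oxLDL KO. This measure is looser than the member count, which takes only the member's own body. The member peak nearest the inner side of the 20 kb limit was an oxLDL WT peak with a fold enrichment of 3.34, 15.4 kb from Capg. Just outside it, 21.8 kb from Cotl1, stood peaks of 4.83 in oxLDL WT and 4.30 in oxLDL KO. Annotated starts were available for 9 members, all but Cotl1. Of the peaks at these 9 genes, 12 of 28 for oxLDL WT (42.9%) and 4 of 13 for oxLDL KO (30.8%) had a summit within 1 kb of a start of that gene. Over all peaks at genes, with starts of any gene counted, the shares were 37.1% and 45.1%. Summits near a start lay mostly on its transcribed side, 10 of 12 for oxLDL WT and 4 of 4 for oxLDL KO, with median offsets of 299 and 436.5 bp downstream. Over all peaks within 1 kb of a start the share on that side was 74.6% for oxLDL WT and 80.6% for oxLDL KO, with median offsets of 220 and 263.5 bp.

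No summit fell inside the 300-base window of a member's start, the 250 bases before it and the 50 bases that begin with it. Several peaks reached into such a window, and the Coro1a summit 50 bp downstream of its second start lay just past the edge. RefSeq sequence (GRCm38.p6, the assembly of mm10) of the 250 bases before the start is shown for 4 genes whose window a peak overlapped, the first pair with a peak in both oxLDL lists and the second pair with a peak in oxLDL WT alone, a choice made after the values were seen. Each is written 5′ to 3′ on the gene's strand, with motif matches in capitals. They show what stands before starts with BRG1 at or next to them. They are Fmnl1 (chr11:103170888-103171137, + strand), Wipf1 (chr2:73529488-73529737, − strand), the second start of Coro1a (chr7:126704221-126704470, − strand) and Hcls1 (chr16:36934733-36934982, + strand).
Fmnl1: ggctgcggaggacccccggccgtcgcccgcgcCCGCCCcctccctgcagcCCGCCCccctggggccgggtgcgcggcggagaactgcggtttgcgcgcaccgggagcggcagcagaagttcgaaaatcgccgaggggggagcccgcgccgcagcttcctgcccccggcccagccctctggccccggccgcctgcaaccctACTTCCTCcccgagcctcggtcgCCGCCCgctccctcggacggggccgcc
Wipf1: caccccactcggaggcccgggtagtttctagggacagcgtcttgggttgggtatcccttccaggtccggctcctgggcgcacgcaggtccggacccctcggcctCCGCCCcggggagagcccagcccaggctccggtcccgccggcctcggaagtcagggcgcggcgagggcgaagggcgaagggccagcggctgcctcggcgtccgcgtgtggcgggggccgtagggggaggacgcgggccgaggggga
Coro1a: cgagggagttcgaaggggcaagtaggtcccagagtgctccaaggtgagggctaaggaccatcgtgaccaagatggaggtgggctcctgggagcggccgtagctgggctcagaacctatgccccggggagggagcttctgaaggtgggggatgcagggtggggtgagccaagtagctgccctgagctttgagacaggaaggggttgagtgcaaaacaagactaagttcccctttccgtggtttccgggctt
Hcls1: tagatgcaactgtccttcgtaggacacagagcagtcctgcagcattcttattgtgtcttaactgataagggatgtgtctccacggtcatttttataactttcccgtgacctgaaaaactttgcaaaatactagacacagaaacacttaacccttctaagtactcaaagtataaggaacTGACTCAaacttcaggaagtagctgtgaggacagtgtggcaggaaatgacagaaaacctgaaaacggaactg

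The capitals mark GGGCGG (Sp factors), GAGGAAGT (PU.1, the myeloid lineage factor) and TGANTCA (AP-1), searched on both strands, and a match on the reverse strand reads as its reverse complement. Of these, Fmnl1 has 3 Sp matches and 1 PU.1 match that begins 50 bases before the start, and Wipf1 has 1 Sp match, all on the reverse strand, while Hcls1 has 1 AP-1 match that begins 72 bases before the start. The printed Coro1a stretch has none of the 3. Among 32851 annotated windows of 300 bases, 35.7% held the Sp motif, 3.20% the PU.1 motif and 7.81% the AP-1 motif. In the 13 windows of the 9 genes the counts were 8, 2 and 1, and the second PU.1 match was in Arpc1b, 3 bases into the transcript. The PU.1 motif contains GGAA, the core bound by ETS factors, which was in all 13 member windows and in 96.0% of all windows. TGACGTCA (CRE), TTGCGCAA (C/EBP), TCACGTGA (MiT/TFE), the NF-kB motif and the CArG box of SRF had a match in 0 of the 13 windows and in 1.79%, 0.183%, 0.974%, 0.155% and 1.63% of all windows. A match is a description of the letters and does not show a bound site. GC content ran from 41.7% in the window of an internal Wipf1 start to 79.3% in Fmnl1, with a median of 61.3% against 52.7% over all windows.

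At the members, as over the whole lists, a minority of the oxLDL WT peaks and most of the oxLDL KO peaks were shared, where sharing 1 bp sufficed. Of the 32 member peaks in oxLDL WT, 12 had a partner in oxLDL KO (37.5%, Wilson 95% interval 22.9 to 54.7). Seen from oxLDL KO, 12 of its 16 had a partner in oxLDL WT (75.0%, interval 50.5 to 89.8). The intervals cover counting error only. Over the whole lists these shares were 27.3% and 59.6%, inside the intervals of the members. The oxLDL WT list is also the longer one, so nothing particular to the members is read from these shares. The 12 overlapping pairs lay at 5 genes, Lcp1, Fmnl1, Cotl1, Arpc1b and Wipf1. Summits of a pair lay 20 to 609 bp apart, within 100 bp in 8 pairs. Overlapped oxLDL WT peaks had a median fold enrichment of 4.51 (range 3.15 to 10.7), and the 20 not overlapped had 3.56 (range 2.71 to 7.52). Peaks were wider in oxLDL WT in 8 pairs, narrower in 3 and equal in 1, and the median width of the pairs was 480.5 bp against 320.5 bp.

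The fragment pileup at each summit, recovered from the deposited fold enrichment and p-value, ran from 14 to 50 at these sites in oxLDL WT and from 13 to 34 in oxLDL KO. It was higher in oxLDL WT in 9 pairs and in oxLDL KO in 3. Divided by the lowest background of its own list, it was higher in oxLDL WT in 7 and in oxLDL KO in 5, and the ratio of KO to WT had a median of 0.942 (range 0.748 to 1.51). The exact Poisson 95% intervals of the 2 libraries overlapped in 12 of 12 pairs. These intervals cover counting error in 1 library per genotype, and the pairs are sites that were listed in both, so the overlap does not show that the genotypes were alike. Where a site is missing from the oxLDL KO list its pileup there is unknown, and the lowest pileup listed at the lowest background was 12 fragments in both oxLDL lists.

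**Figure D2:**
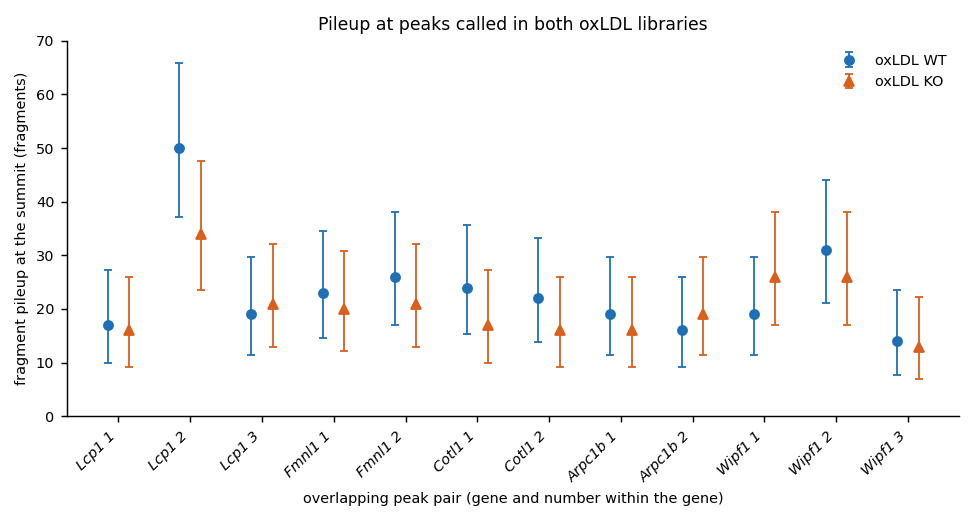
Fragment pileup at the summit (vertical axis, fragments) for the 12 pairs of overlapping oxLDL WT (circles) and oxLDL KO (triangles) peaks (horizontal axis, gene and number of the pair in the gene), with exact Poisson 95% intervals. The intervals overlap in every pair, and the second Lcp1 pair, with 50 and 34 fragments, is the highest.

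Among bundling proteins, Lcp1 encodes L-plastin, the leukocyte plastin that crosslinks filaments. Lcp1 (chromosome 14, 75131105 to 75230842, + strand) held 6 oxLDL WT peaks and 3 oxLDL KO peaks, and each oxLDL KO peak overlapped an oxLDL WT one. The main site lay inside the gene, 33.2 kb downstream of the first start. Its fold enrichment was 10.7 in oxLDL WT (summit 75164275, width 1413 bp, rank 4 of 9907) and 7.92 in oxLDL KO (summit 75164325, width 241 bp, rank 7 of 4668). Its pileup was 50 fragments in oxLDL WT (interval 37.1 to 65.9) and 34 in oxLDL KO (interval 23.5 to 47.5). Both libraries thus placed their highest Lcp1 summit within 50 bp of each other, while the oxLDL WT interval was several times as wide. The site 17.1 kb downstream had a fold enrichment of 3.78 in oxLDL WT and 3.85 in oxLDL KO, with 17 and 16 fragments. The last shared site had 4.20 in oxLDL WT at 48.0 kb and 4.98 in oxLDL KO at 48.5 kb, with 19 and 21 fragments, so at this site the oxLDL KO value was the larger one. The remaining oxLDL WT peaks were low, at 2.94 (0.543 kb from the first start), 3.36 (50.3 kb) and 3.57 (55.2 kb). The peak at 0.543 kb is also within 1 kb of a start of the neighbouring gene Lrrc63.

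**Figure D3:**
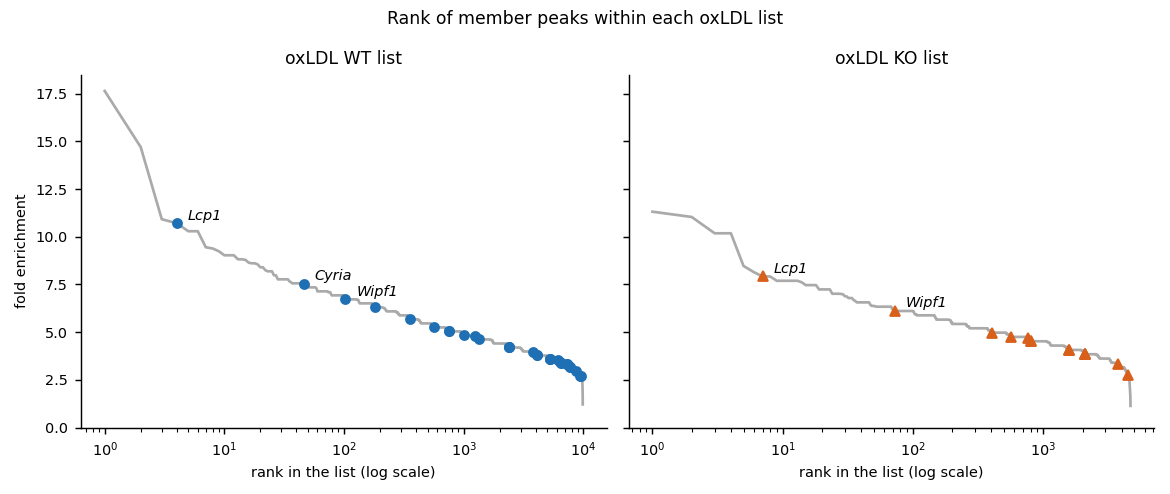
Fold enrichment (vertical axis, ratio) against rank in the list (horizontal axis, log scale) for all peaks (grey line) of the oxLDL WT list (left) and the oxLDL KO list (right), with the peaks of the 10 genes as symbols. Lcp1 stands at rank 4 and rank 7, Cyria at rank 46 in oxLDL WT, and Wipf1 at ranks 103 and 73, while the other member peaks are spread down both lists.

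The ranks of the members were spread over the lists. Of the 32 oxLDL WT peaks, 8 were in the top 10% by fold enrichment (25.0%), and of the 16 in oxLDL KO 3 were (18.8%). All ranks give tied peaks the best rank of their block. The oxLDL KO count includes an Lcp1 peak of 4.98, at rank 405 in a block of 110 tied peaks that crosses the 10% limit. The median fold enrichment of the members was 3.78 for oxLDL WT and 4.07 for oxLDL KO, beside 3.75 and 3.85 over the whole lists. Member peaks had a median width of 555 bp in oxLDL WT and 324.5 bp in oxLDL KO, beside 368 and 309 bp over the lists. Peaks of at least 1 kb numbered 6 of 32 in oxLDL WT, at Lcp1, Cyria, Fmnl1, Cotl1 and Wipf1, and 1 of 16 in oxLDL KO, at Fmnl1, where 5.47% and 1.29% of all peaks were that wide.

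Capg encodes gelsolin-like capping protein, which blocks the fast-growing filament end in macrophages, and its peaks differed in place between the oxLDL lists. At Capg (chromosome 6, 72538282 to 72562983, + strand) the oxLDL WT list had a peak of 3.45 with its summit 393 bp upstream of the annotated start and one of 3.78 at 1.72 kb downstream. The oxLDL KO list had 1 peak, of 3.85, 5.15 kb upstream of that start and inside the gene body. The nearest oxLDL WT peak was 4543 bp away from it, so no Capg peak was shared. Both of these oxLDL WT peaks had 17 fragments and the oxLDL KO peak 16, where the lowest listed at the lowest background was 12 in either list. Over the whole lists 27.3% of oxLDL WT peaks had an oxLDL KO partner, so nothing is read from the missing overlap. A further oxLDL WT peak of 3.34 at 72522855, the only member peak outside the body of its member gene, lay inside the neighbouring gene Sh2d6.

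Cotl1 encodes coactosin-like protein, which binds filaments. Cotl1 (chromosome 8, 119809214 to 119840579) had 4 oxLDL WT peaks and 3 oxLDL KO peaks, and most of them lay together in the middle of the gene. The widest member peak of all, 1821 bp in oxLDL WT with a summit at 119826389, had a fold enrichment of 5.25 and 24 fragments. An oxLDL KO peak of 734 bp with a summit at 119826998 overlapped it at 4.07, with 17 fragments. At a second shared site, where both lists gave an interval of 259 bp, the values were 4.83 in oxLDL WT and 3.85 in oxLDL KO. Both shared sites thus had the higher fold enrichment in oxLDL WT, with overlapping counting intervals. Another oxLDL KO peak of 4.07 at 119825329 was 318 bp from the wide oxLDL WT peak and did not overlap it. The other oxLDL WT peaks, at 119812937 and 119838918, had 3.57 and 3.55.

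Among genes of filament growth, Fmnl1 encodes a formin of blood cells and Pfn1 profilin 1. Fmnl1 (chromosome 11, 103171004 to 103198902, + strand) carried 3 oxLDL WT peaks within 7.18 kb of its start, all in the top 10% of that list. The peak at the start, whose upstream sequence is printed above with its PU.1 match, was wide in both libraries. It had a fold enrichment of 5.04 in oxLDL WT (width 1468 bp, summit 182 bp downstream of the start) and 4.75 in oxLDL KO (width 1409 bp, summit 217 bp downstream), and it is also within 1 kb of a start of Gm51919. Its pileup was 23 fragments with oxLDL WT cells, 20 with oxLDL KO. The second site, 3.94 kb downstream, had 5.67 in oxLDL WT with a width of 1010 bp and 4.67 in oxLDL KO with a width of 319 bp. The third, 7.18 kb downstream, was the highest in oxLDL WT at 6.30 with 29 fragments (interval 19.4 to 41.6) and had no counterpart in oxLDL KO, where the nearest peak was 2840 bp away. Fmnl1 was thus the member with a wide start peak in both genotypes and a higher inner peak in oxLDL WT alone.

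Pfn1 was the only member with a peak in an untreated library. At Pfn1 (chromosome 11, 70651844 to 70656799, − strand) the WT list had a peak of 3.75 with its summit 381 bp downstream of the annotated start and 14 fragments (rank 160 of 237). It overlapped an oxLDL WT peak of 3.35 with 17 fragments whose summit was 472 bp downstream. The −log10 q of the WT peak was 1.69, where the lowest of that list was 1.02. A second oxLDL WT peak, of 4.62 with 21 fragments, lay 1.19 kb upstream of the annotated start. Its summit was still inside the gene body, within 1 kb of the end with the higher coordinate, because that start itself lies within the body. The oxLDL KO peak of 3.32, 2.36 kb downstream, overlapped no peak of the other lists. The WT peak and both oxLDL WT peaks also lie in the annotated extent of the neighbouring gene Eno3, so they cannot be assigned to Pfn1 alone.

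Among genes of branched actin, Arpc1b encodes a subunit of the Arp2/3 complex most abundant in blood cells. Arpc1b (chromosome 5, 145114256 to 145128186, + strand) had 2 peaks in each oxLDL list, matched site by site. At the start site the fold enrichment was 4.20 in oxLDL WT, 248 bp downstream of the start, and 3.85 in oxLDL KO, 673 bp downstream, with 19 and 16 fragments. At 2.62 kb in oxLDL WT and 2.55 kb in oxLDL KO it was 3.57 and 4.53, with 16 and 19 fragments. The site with the higher value was thus the start in oxLDL WT and the inner site in oxLDL KO, with overlapping counting intervals at both.

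Wipf1 encodes WIP, which binds and stabilises the Arp2/3 activator WASP. Wipf1 (chromosome 2, 73429610 to 73529487, − strand) had 6 oxLDL WT peaks and 4 oxLDL KO peaks, of which 3 sites were shared. The highest site, 17.1 kb downstream of the first start, had 6.72 in oxLDL WT (rank 103, 31 fragments) and 6.11 in oxLDL KO (rank 73, 26 fragments), with summits 29 bp apart. At the first start the order was the other way, with 3.29 in oxLDL WT, 309 bp downstream, and 4.54 in oxLDL KO, 289 bp downstream. This pair had 19 and 26 fragments and a local background of 5.07 and 4.95, above the lowest of the lists. At the start near 73453889 both lists had a low peak, 3.15 for oxLDL WT and 2.73 for oxLDL KO. An oxLDL KO peak of 4.07 at 2.36 kb was not in oxLDL WT. Peaks around the start at 73485753 (4.20, 586 bp upstream, and 2.73, 720 bp downstream) and a peak of 3.15 at 73.5 kb were in oxLDL WT and not in oxLDL KO. Each of the 3 annotated starts of Wipf1 thus had an oxLDL WT summit within 1 kb.

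Coro1a, Cyria and Hcls1 had peaks in oxLDL WT and none within 20 kb in oxLDL KO. Coro1a encodes coronin 1A, which binds Arp2/3 and filaments in leukocytes. At Coro1a (chromosome 7, 126699774 to 126704816, − strand) the higher peak had a fold enrichment of 4.81 with 22 fragments (interval 13.8 to 33.3) and a width of 773 bp. Its summit lay 50 bp downstream of the second annotated start, whose upstream sequence is printed above. A second peak 1.41 kb downstream of that start had 3.98 with 20 fragments. The nearest oxLDL KO peak was 41789 bp away.

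Hcls1 encodes HS1, the blood cell relative of cortactin that holds Arp2/3 branches. At Hcls1 (chromosome 16, 36934983 to 36963214, + strand) the start held neighbouring oxLDL WT peaks, 2.71 with its summit 331 bp downstream and 5.04 at 792 bp. The lower one had 20 fragments on a local background of 6.75, and the higher one 23 fragments (interval 14.6 to 34.5) on 3.76, so their pileups were closer than their fold enrichments. The nearest oxLDL KO peak was 718053 bp away.

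Cyria encodes a protein that binds active Rac1 and limits the WAVE complex, an Arp2/3 activator. At Cyria (chromosome 12, 12262134 to 12380965, + strand) the oxLDL WT list had a peak of 7.52 inside the gene, 39.6 kb downstream of the start, 1355 bp wide and ranked 46 of 9907. It rested on 35 fragments (interval 24.4 to 48.7), the second highest pileup among the members. A low peak of 3.36 lay 1.23 kb from the start. The nearest oxLDL KO peak, 39001 bp from the low peak and outside the window, had 3.34. Cyria therefore holds the highest member peak without an oxLDL KO counterpart.

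At a stricter limit, a −log10 q of at least 5, fewer members kept a peak. In oxLDL WT 11 peaks at 8 genes passed it, and in oxLDL KO 6 peaks at 3 genes, Lcp1, Fmnl1 and Wipf1. Of the 11 in oxLDL WT, 6 had an oxLDL KO partner of any q, and 5 had none. No matching share of all protein-coding genes, or of all peaks with a partner, is given at this limit. The gene counts and the partner split therefore cannot be told from the general gap between the lists, and nothing is read from them. The share of peaks past this limit was 34.4% among the oxLDL WT members and 37.5% among the oxLDL KO members, beside 25.4% and 19.8% of the whole lists.

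Other genes of the actin machinery had BRG1 peaks as well. Of 95 further genes in 9 groups, 69 had a peak under the same 20 kb rule in oxLDL WT (72.6%), 56 in oxLDL KO (58.9%), 4 in WT and 1 in KO. Under the 20 kb rule, a peak in both oxLDL lists was found at 52 of the 95 genes. In oxLDL WT and not oxLDL KO there was one at 17, and in oxLDL KO and not oxLDL WT at 4. Over all protein-coding genes these shares were 17.5%, 15.6% and 3.55%. The counts for 1 oxLDL list alone are close to the shares of all genes, so nothing is read from them. The list was written with earlier results of these data known and its genes are long, with a median of 41.7 kb. The 6 genes on chromosome X (Tmsb4x, Was, Diaph2, Pls3, Flna and Msn) count as having no peak, because the lists hold none outside chromosomes 1 to 19. Counts for 8 of the 9 groups follow, oxLDL WT before oxLDL KO. Adhesion and cortex genes had a peak at 10 and 11 of 12, and Arp2/3 subunit genes at 6 and 7 of 8. The Arp2/3 counts include Arpc1a, whose peaks are those of the member Arpc1b. Inf2, among the formin genes, counts through peaks farther than 1 kb from its body. Bundling and crosslinking genes had the lowest shares of these, 4 and 3 of 9, of which 2 are on X. Actin and monomer-binding genes counted 6 and 3 of 8, WASP and WAVE regulators 12 and 9 of 19, formin and Ena/VASP genes 8 and 7 of 12, capping and severing genes 8 and 5 of 11, and coronins 5 and 3 of 6.

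**Figure D4:**
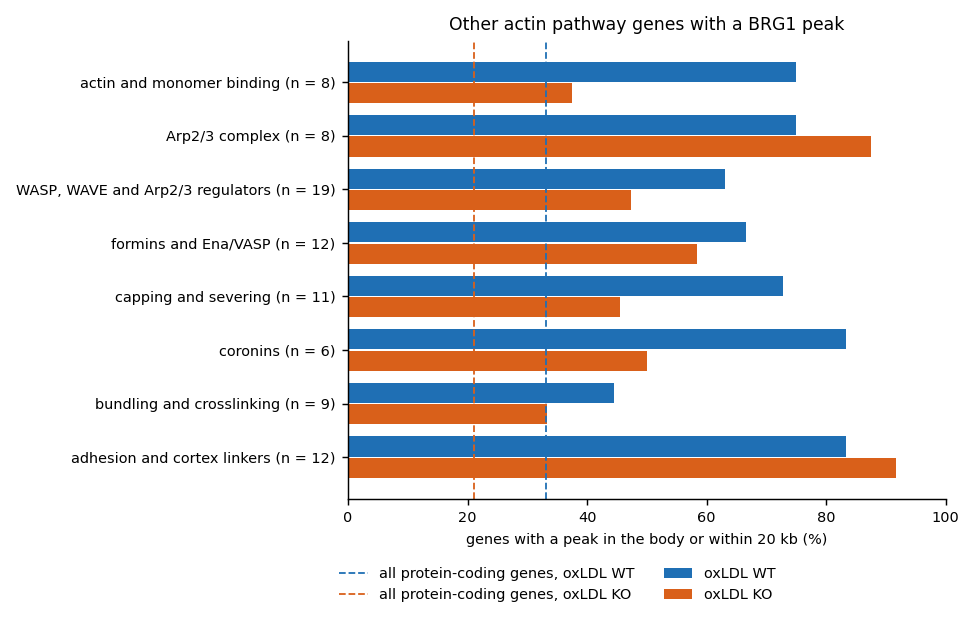
Share of genes with a peak in the body or within 20 kb (horizontal axis, %) in 8 groups of other actin pathway genes (vertical axis, with the number of genes), for oxLDL WT and oxLDL KO (bars). Dashed lines give the share over all protein-coding genes, 33.2% for oxLDL WT and 21.1% for oxLDL KO, and the bars of all 8 groups extend beyond the line of their own list. Arpc1a is counted in the Arp2/3 group through peaks of the member Arpc1b.

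The highest peaks of these genes reached the range of the members below Lcp1. In oxLDL WT they were at Wasf2, a WAVE subunit gene (7.56, rank 37), the coronin gene Coro2a (6.99, rank 78) and Dock8, an exchange factor gene of Cdc42 (6.67, rank 131). In oxLDL KO they were inside Myo1f, a leukocyte myosin gene, and just outside Lsp1, a leukocyte actin-binding protein gene (6.56 each, rank 37), and again at Wasf2 (6.11, rank 73). Wasf2 (chromosome 4, 133130531 to 133199748) had its highest oxLDL WT summit at 133170002 and its highest oxLDL KO summit at 133169929, both inside the gene. In the WT list peaks lay at Capza2 (3.78) and Coro7 (3.75), inside the genes, and within 20 kb of Wipf2 and Vav1 (3.78 each), and in the KO list at Rhog (3.99).

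Close relatives of the members, set beside them after the values were seen, differed in whether they had a peak. Under the 20 kb rule, Pls1 and Pls3, the other plastins, Cttn, the cortactin gene, Pfn2, Wipf3, Coro2b and the severing protein gene Scin had 0 peaks in all 4 lists, with Pls3 on chromosome X. Cyrib, the relative of Cyria, had 4 oxLDL WT and 3 oxLDL KO peaks, the highest at 5.04 and 4.75, so a peak in both lists was found at Cyrib and in oxLDL WT alone at Cyria. Fmnl2 had 4 and 2 peaks, up to 3.99 and 3.62, and Fmnl3 had 1 and 1, at 3.15 and 3.25, below the highest Fmnl1 values. Gsn, the gelsolin gene, had 5 and 2, up to 4.41 and 4.07. The peaks within 20 kb of Arpc1a are those of its neighbour Arpc1b, and within 1 kb of its own body Arpc1a had 0. Coro2a had 8 and 4 peaks and Coro1c 5 and 3, up to 6.09 and 5.88, while Coro1b had 1, of 3.78, outside its body in oxLDL WT alone. Among other relatives, Vil1, the villin gene related to Capg, had 1 oxLDL WT peak, outside its body, and 0 oxLDL KO peaks. Coro6 had 2 peaks in oxLDL WT, up to 4.83, and 0 in oxLDL KO. Coro7 had 1 peak in WT, 2 in oxLDL WT (up to 4.41) and 1 in oxLDL KO (3.32). Wipf2 had 1 peak in each of these lists, at 3.78, 3.99 and 3.32, all of them outside its body.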

How the data were processed

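BRG1 ChIP-seq was made in BMDMs, with 1 library per group taken from the sample titles and no replicate. Per the submitters' processing notes, bcl2fastq 2.17, Trimmomatic 0.33, Bowtie2, MACS3 and mm10 were used, without roles or parameters. Each library has its own peak list, so the authors did not pool libraries for calling. Each list gives a deposited score (10 times the −log10 q), the authors' fold enrichment (a ratio to local background), −log10 p, −log10 q and a summit offset in bp. Pileups were solved from the fold, taken as (pileup + 1)/(background + 1), and the Poisson p. They came out whole, within 2% of the step to the next whole pileup, for 97.9% of WT, 93.5% of KO and 99.9% of the peaks in each oxLDL list, and the solver was tested on simulated data. Pileups count fragments at 1 position, and their Poisson intervals cover counting error only. Whether PCR copies were removed before peak calling is not given. Gene positions and annotated starts are RefSeq's on GRCm38.p6. Overlap meant at least 1 bp. The start table has no entry for Cotl1 and covers 20 chromosomes, and exons were not used. Sequences under the inner peaks were not analysed here. All 10 members are named. Of the other genes, the 3 highest of each oxLDL list and those with an untreated peak are named, and the counts of 1 group are not reported here. Members, lists and rules were chosen with earlier results of these data known. Python 3.11.15, numpy 2.4.6, scipy 1.17.1 and pandas 2.3.3 were used. Alternatives covered the q and p limits, the gene window, the overlap and high-background peaks, over 5 times the lowest background of their list.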

Additional observations from a re-analysis of the deposited data

How the results depend on the processing

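Of 102 values recomputed under other settings, 87 stayed within 1.5 times the reported count, or within the interval of the reported share, and 15 did not. Where either count was 0, only an equal count was taken as unchanged. The KO list held 0 member peaks, so stricter limits and smaller windows there could only return 0 and add to the 87. Only counts and overlap shares were recomputed. Whether the direction of a fold enrichment, pileup or width within a pair would reverse was not tested. At a −log10 q of at least 5, member peaks numbered 11 for oxLDL WT and 6 for oxLDL KO, where 3 members had one. Other actin genes with a peak then numbered 42 for oxLDL WT, 18 for oxLDL KO and 0 for KO. At a −log10 q of at least 2, and also at 5, the WT list held 0 member peaks, 0 members with a peak and 0 other actin genes with one, so the Pfn1 peak in WT depends on the limit. Within 1 kb, and also within 10 kb, 2 other actin genes had a WT peak in place of 4. With summits within 200 bp required in place of 1 shared bp, 8 of the 16 oxLDL KO peaks were shared (50%). Without high-background peaks the member counts did not change, as no member peak is one. No paired analysis was possible because each group has 1 library. Depth limits what a missing peak shows, since a site with fewer fragments than the caller's limit is unlisted.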
